A study of Mus musculus with 4 samples.

Results

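The chemokine receptor gene Cxcr2 and 5 chemokine genes, Cxcl1, Cxcl2, Cxcl3, Ppbp and Pf4, were followed across the leukocytes of the injured gut muscularis. The genes were chosen by name, as a receptor that neutrophils carry and 5 chemokine genes that neighbour each other on another chromosome, and all 6 were found among the 16308 genes of the count tables. Droplet-based single cell RNA sequencing with 10x 3′ chemistry had been applied to CD45+ cells, which are leukocytes, from the muscle layer of the small intestine after surgical manipulation. WT animals were C57BL/6J mice and CCR2 KO animals were Ccr2-/- mice of the strain B6.129S4-Ccr2tm1Ifc/J, all 12 weeks of age and all operated. There were 4 libraries, 1 for each genotype at 24 h and 1 for each at 72 h post-injury. Each library pooled several mice, so every comparison was between 2 libraries and no test across animals could be made. CCR2 is the receptor that monocytes need to enter inflamed tissue in number, and the KO lacks it in every cell.

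CXCR2 is a G protein-coupled receptor that guides neutrophils along gradients of CXC chemokines. CXCL1, CXCL2, CXCL3 and the processed form of PPBP carry an ELR (Glu-Leu-Arg) motif ahead of the first cysteines and bind CXCR2. PF4 lacks that motif, is stored in platelet granules with PPBP, and is not a classical CXCR2 ligand. Transcription of the inducible ligands is driven by NF-κB after signals such as IL-1 and TNF, and their mRNAs are short-lived. Fewer cells of a type and less RNA per cell can be told apart here only as far as cells were assigned to the right class.

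The 5 chemokine genes lay on the plus strand of chromosome 5 within 137.421 kb (GRCm38), in the order Ppbp (chr5:90768518-90770063), Pf4 (chr5:90772435-90773383), Cxcl3 (chr5:90786103-90789600), Cxcl1 (chr5:90891241-90893115) and Cxcl2 (chr5:90903871-90905938). Cxcr2 was on chromosome 1 (chr1:74153989-74161246, plus strand), and no annotated gene overlapped any of the 6. In the RefSeq windows from 250 bases before to 50 bases after each gene start, the longest word shared by the first 200 bases of Cxcl1, Cxcl2 and Cxcl3 was the 11-base word GGGAATTTCCC, which has the form of an NF-κB site. It started 71, 97 and 73 bases upstream of them. The word was chosen from these 3 windows, and over both strands it was present in 14 of all 32851 windows (0.0426%). It was not found in those of Cxcr2, Ppbp and Pf4. A match describes letters and is not a measured binding site. The 200 bases that hold the match are shown for the 3 genes that share it, with the word in capitals (RefSeq, GRCm38.p6, plus strand, chr5:90890995-90891194, chr5:90903649-90903848 and chr5:90785851-90786050 in that order).
Cxcl1: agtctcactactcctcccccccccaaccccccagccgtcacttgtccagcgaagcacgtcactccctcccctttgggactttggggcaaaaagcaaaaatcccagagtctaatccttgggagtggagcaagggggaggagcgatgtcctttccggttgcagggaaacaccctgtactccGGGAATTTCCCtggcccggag
Cxcl2: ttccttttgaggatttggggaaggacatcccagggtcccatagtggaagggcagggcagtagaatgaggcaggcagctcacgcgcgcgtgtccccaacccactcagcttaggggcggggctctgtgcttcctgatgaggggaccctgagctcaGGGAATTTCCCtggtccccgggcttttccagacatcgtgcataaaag
Cxcl3: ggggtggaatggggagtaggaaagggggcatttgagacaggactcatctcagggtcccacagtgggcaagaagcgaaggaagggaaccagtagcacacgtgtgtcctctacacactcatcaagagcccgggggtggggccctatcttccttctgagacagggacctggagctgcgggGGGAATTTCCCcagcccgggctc

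The 4 libraries held 5811 cells, and the total counts of unique molecular identifiers (UMIs) ranged from 9736725 to 21206308. The median UMIs per cell were 12859 in WT 24 h, 3281.5 in CCR2 KO 24 h, 12427 in WT 72 h and 4990.5 in CCR2 KO 72 h, and no pair of libraries shared more than 1 cell barcode. After 11 non-immune cells had been removed, clusters were named from marker genes with the 6 genes left out of the clustering. The libraries differed most in which leukocytes they held. Monocyte/Mφ-like cells made up 76.2% of WT 24 h, 12.4% of CCR2 KO 24 h, 64.8% of WT 72 h and 14.3% of CCR2 KO 72 h. Neutrophil-like cells made up 17.7%, 72.9%, 6.54% and 20.8% in the same order, which were 297, 1290, 86 and 217 cells. A further granulocyte cluster with high Siglecf (10, 47, 106 and 373 cells) carried Csf3r, the G-CSF receptor gene, at 903 to 1554 CPM (UMIs of the gene per 1000000 UMIs of the class). It had 0 UMIs of the eosinophil genes Prg2, Il5ra and Ear6 in every library and at most 4 of Ccr3, so it is called Siglecf-high granulocytes and given no cell type name. Ccr2, the targeted gene, was at 754 CPM in WT against 95.2 CPM in CCR2 KO at 24 h among monocyte/Mφ-like cells, and at 1082 against 83.2 CPM at 72 h. Intervals given below are exact 95% intervals of counting error only and hold no variation between mice.

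Cxcr2 was a gene of the granulocytes. Neutrophil-like cells held it at 1226 CPM (1147 to 1310) in WT 24 h, 1157 (1124 to 1190) in CCR2 KO 24 h, 1220 (1086 to 1366) in WT 72 h and 1137 (1075 to 1201) in CCR2 KO 72 h. The 4 intervals overlapped. Siglecf-high granulocytes were at 1222 CPM (774 to 1833, 10 cells) and 1022 (847 to 1223) at 24 h in WT and CCR2 KO, and at 558 (466 to 662) and 508 (468 to 551) at 72 h. At 72 h their level was thus below that of neutrophil-like cells of the same library in both genotypes, whereas at 24 h the intervals of both classes overlapped. With T, NK and innate lymphoid cells pooled, every other class was at or below 10.9 CPM. Taken singly, NK cell-like cells of CCR2 KO 24 h were at 32.9 CPM (5 UMIs in 27 cells) and T cell-like cells of WT 72 h at 15.7 (6 UMIs in 55 cells).

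With every cell reduced at random to 1000 UMIs, a Cxcr2 UMI was found in 65.7% (59.8 to 71.3) of WT 24 h neutrophil-like cells, 56.8% (54.1 to 59.6) of CCR2 KO 24 h, 57.1% (45.9 to 67.9) of WT 72 h and 54.2% (47.3 to 61.1) of CCR2 KO 72 h. Shallower cells left out numbered 20, 16, 2 and 5. The intervals of the genotypes did not overlap at 24 h. With thinning to 500 UMIs they did, at 47.5% (41.7 to 53.3) for WT 24 h against 41.4% (38.7 to 44.1) without CCR2. Before thinning the shares were 79.8%, 76.4%, 83.7% and 80.2%, at median depths of 2083, 2971, 2859.5 and 4814 UMIs. The pooled lymphoid class (T, NK and innate lymphoid), which should lack the receptor, gave 1 of 114 cells in CCR2 KO 24 h (0.877%) and 0 of 22, 82 and 159 cells in WT 24 h, WT 72 h and CCR2 KO 72 h (up to 13.6%, 3.66% and 1.89%), at median depths of 4942 to 7330 UMIs. Monocyte/Mφ-like cells gave at most 0.935%, a share read as background. The Cxcr2 UMIs of neutrophil-like cells were not held by a few cells, since the highest cell of a library held between 0.402% and 5% of them.

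**Figure D1:**
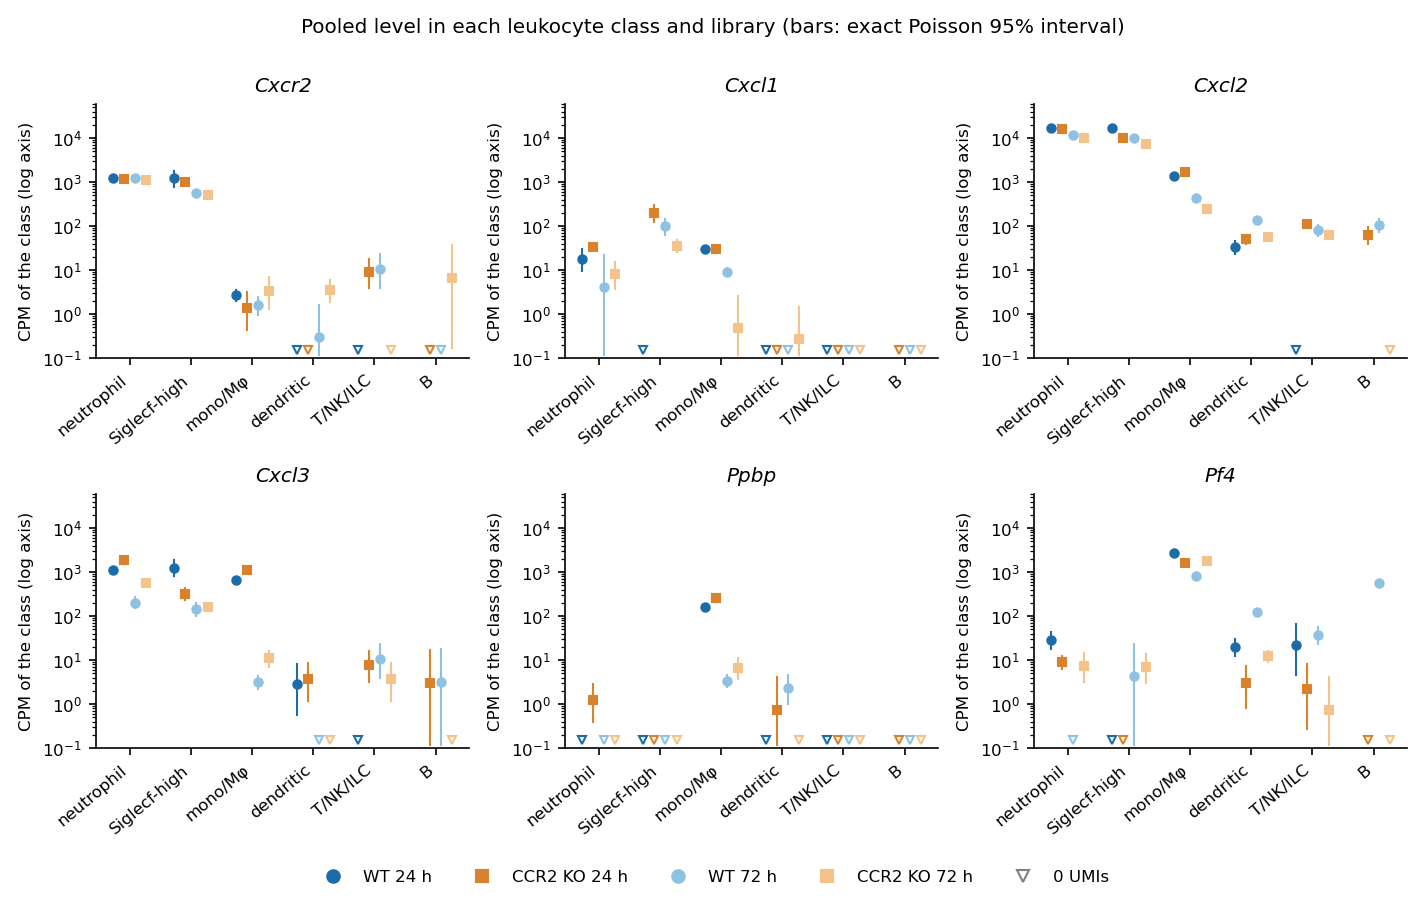
Pooled level of each of the 6 genes (CPM, log axis) in 6 leukocyte classes, with 1 point per library, bars for the exact Poisson 95% interval and open triangles for 0 UMIs. Cxcr2 lies between 508 and 1226 CPM in both granulocyte classes and at or below 10.9 CPM in the other classes, with T, NK and innate lymphoid cells pooled, while Pf4 and Ppbp are highest in monocyte/Mφ-like cells.

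The question of whether Cxcr2 RNA in neutrophil-like cells differed without CCR2 was read from the ratio of pooled levels. Receptor protein was not measured in these libraries. The log2 ratio of Cxcr2 in CCR2 KO against WT neutrophil-like cells was -0.08 (-0.19 to 0.02) at 24 h and -0.10 (-0.29 to 0.08) at 72 h. From 24 h to 72 h it was -0.01 (-0.20 to 0.18) in WT and -0.03 (-0.12 to 0.06) in the KO. The medians over all genes were 0.12, -0.16, 0.19 and -0.11 in these comparisons. All 4 intervals of Cxcr2 included 0, so no difference in pooled level was detectable at this depth. The thinned shares at 24 h, 65.7% for WT against 56.8% without CCR2, had intervals that did not overlap at 1000 UMIs but did at 500. Pooled levels also average over clusters that differ in Cxcr2 and in cell numbers, as given below. The counting intervals of the ratios leave room for differences of up to 0.29 on the log2 scale. Other processing settings moved the ratio further and to either side of 0, from -0.21 to 0.23 and from -0.38 to 0.11 for CCR2 KO against WT at 24 h and 72 h, and from -0.45 to 0.14 in WT and from -0.50 to 0.06 in the KO across time. In Siglecf-high granulocytes of CCR2 KO, Cxcr2 was 2.01-fold lower at 72 h than at 24 h (log2 ratio -1.01, -1.29 to -0.71). There 336 of 6185 genes (5.43%) were 2-fold or more lower, among them also Cxcl1 (-2.45) and Cxcl3 (-1.03). These rested on 47 cells at 24 h. Cxcr2 UMIs per 1000 leukocytes numbered 579 in WT 24 h and 2744 in CCR2 KO 24 h. At 72 h they numbered 347 in WT and 1794 in CCR2 KO. These totals depend on the class shares and on the depth per cell. Neutrophil-like cells made up 17.7% of WT 24 h and 20.8% of CCR2 KO 72 h. They held 3.01 and 5.79 Cxcr2 UMIs per cell, at median depths of 2083 and 4814 UMIs.

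Within the neutrophil-like class, Cxcr2 separated clusters that the clustering had found without it. The cluster led by Id1, Igfbp6 and Cpeb2 was at 1780 CPM in WT 24 h and 1970 in CCR2 KO 24 h, and the cluster led by the interferon-induced genes Ifit3, Ifit3b and Ifit1 was at 1817 and 1762. The cluster led by Retnlg, Ly6g and S100a9, genes of mature granule-bearing neutrophils, was at 1331 and 1408. Lower levels were found in the cluster led by Ccl4, Ccl3 and Mreg, at 652 CPM (484 to 859, 32 cells) and 641 (606 to 679, 587 cells), and in that led by Asprv1, Il1f9 and Chil1, at 661 (555 to 782) and 357 (290 to 433). Both low clusters were high in Cxcl2 at 24 h, the first at 22908 CPM and 17795 and the second at 20960.1 and 26836, against 11697 to 18530 in the other 3 clusters of CCR2 KO 24 h and 13630 to 16657 in those of WT 24 h. In CCR2 KO 24 h the ranges overlapped, since the cluster led by Retnlg was above that led by Ccl4 in Cxcl2.

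At 72 h the cluster led by Asprv1 again had low Cxcr2 beside high Cxcl2, at 319 CPM and 22979 CPM in WT (19 cells) and at 361 and 19400.2 in CCR2 KO. The cluster led by Ccl4 did not, since its 21 cells in CCR2 KO 72 h were low in both, at 209 CPM of Cxcr2 (114 to 350) and 7168 CPM of Cxcl2. Shares of cells with a Cxcr2 UMI were also taken over neutrophil-like cells ordered by their Cxcl2 UMIs after thinning and cut into 3 equal groups. From the lowest to the highest Cxcl2 group, they were 74.2%, 70.7% and 52.2% in WT 24 h, 63.1%, 60.9% and 46.5% in CCR2 KO 24 h, and 60.7%, 64.3% and 46.4% in WT 72 h, where each group had 28 cells. They were 53.5%, 53.5% and 55.7% in CCR2 KO 72 h, so the lower share in cells rich in Cxcl2 was not seen in that library. Cxcr2 UMIs per 1000 UMIs in the lowest and highest groups were 1.56 and 1.09 in WT 24 h and 1.47 and 0.917 in CCR2 KO 24 h. At 72 h they were 1.39 and 1 in WT, and 1.06 and 1.4 in CCR2 KO. In a cell of 1000 UMIs the UMIs of Cxcl2 (a median of 16 to 28 in the highest group) take room from all other genes. The part of this in the lower shares was not tested.

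**Figure D2:**
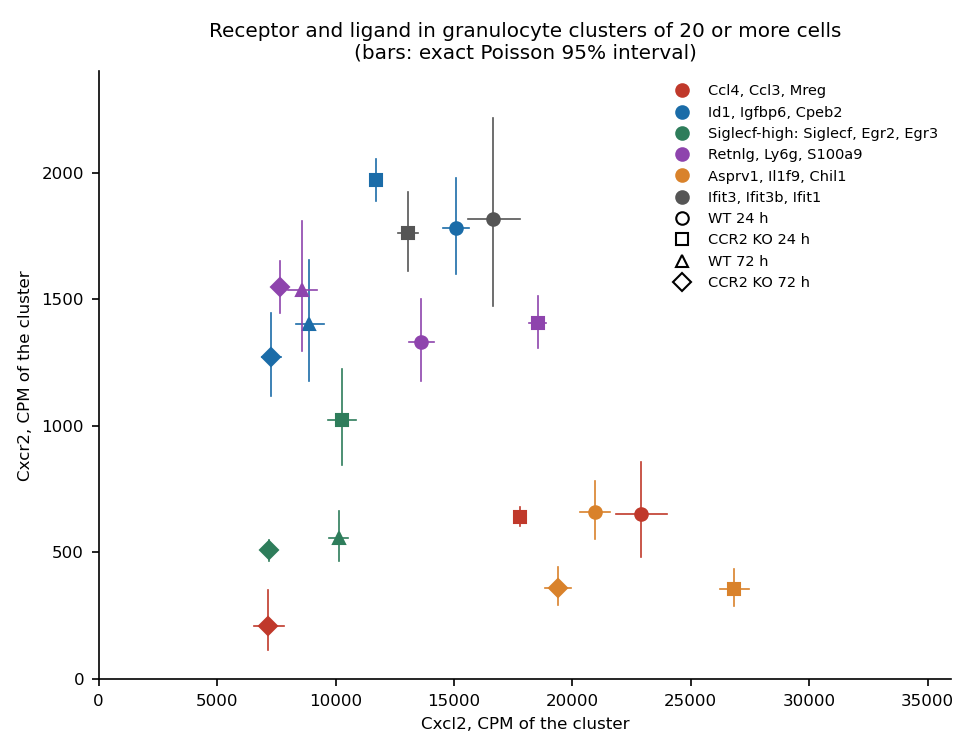
Cxcr2 against Cxcl2 (both in CPM of the cluster) in neutrophil-like and Siglecf-high clusters with 20 or more cells in a library, coloured by the leading genes of the cluster, with marker shapes for libraries and bars for exact Poisson 95% intervals. The clusters led by Asprv1 and by Ccl4 lie at 209 to 661 CPM of Cxcr2, and the latter has 7168 CPM of Cxcl2 in CCR2 KO 72 h.

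The related receptors and the signalling genes below CXCR2 were measured beside it. Cxcr1, the other receptor of ELR chemokines, was at 8.22, 28.4, 52.9 and 48.8 CPM in neutrophil-like cells, in the library order WT 24 h, CCR2 KO 24 h, WT 72 h, CCR2 KO 72 h. Cxcr4, which retains neutrophils in bone marrow and marks aged ones, was at 510, 914, 805 and 396 CPM, a log2 ratio in CCR2 KO against WT of 0.84 at 24 h and -1.02 (-1.27 to -0.77) at 72 h. Of 7 receptors for other neutrophil attractants, 2 were 2-fold or more lower in CCR2 KO at 24 h, where 105 of all 4333 genes (2.42%) were. These were the formyl peptide receptor genes Fpr2, at 282 CPM against 691 (log2 ratio -1.29, -1.44 to -1.14), and Fpr1, at 277 against 618 (-1.16). The same genes were lower at 72 h than at 24 h in WT neutrophil-like cells (-1.63 and -1.36), a comparison that shares the WT 24 h library. The WT 24 h neutrophil-like class also carried the highest sum of 15 monocyte/Mφ markers, at 2420 CPM against 782 in CCR2 KO 24 h, 553 in WT 72 h and 529 in CCR2 KO 72 h, and their part in these differences was not tested. Of 17 measured genes of CXCR2 signalling (G protein subunits, PI3Kγ, Rac2, arrestin and their regulators), 0 passed 2-fold in CCR2 KO against WT neutrophil-like cells at 24 h, where 2.42% of all genes were lower and 6.79% higher. At 72 h it was 0 of 16, where 7.33% were lower and 4.35% higher. In a list this short, 0 is near those shares and is no result about the list. The list had medians of -0.22 and -0.23 against 0.12 and -0.16 over all genes.

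The chemokine genes had different sources. Of all Cxcl2 UMIs, monocyte/Mφ-like cells held 67.7% and neutrophil-like cells 31.4% in WT 24 h, whereas in CCR2 KO 24 h they held 8.06% and 90.1%. In WT 72 h the shares were 46.6% and 26.6%, with 21.7% in Siglecf-high granulocytes, and in CCR2 KO 72 h 2.53%, 55.0% and 41.0%. Cxcl3 UMIs came from monocyte/Mφ-like cells to 93.8% (93.4 to 94.2) in WT 24 h and to 34.3% (33.5 to 35.2) in CCR2 KO 24 h, where neutrophil-like cells held 65.3%. Cxcl1 UMIs came from monocyte/Mφ-like cells to 97.9% in WT 24 h and 40.1% in CCR2 KO 24 h. Ppbp and Pf4 came almost wholly from monocyte/Mφ-like cells, with 83.3% to 100% of Ppbp and 94.1% to 99.9% of Pf4 UMIs there. Per 1000 leukocytes, Cxcl2 gave 23958 UMIs in WT 24 h, 42403 in CCR2 KO 24 h, 8271 in WT 72 h and 19620 in CCR2 KO 72 h. Cxcl3 gave 8238, 6665, 98.1 and 821, Cxcl1 362, 154, 102 and 50.9, and Pf4 31164, 3359, 8021 and 3778. These totals depend on the depth per cell and on the class shares of a sort and are a description of each library. How UMIs were split between both granulocyte classes rests on the clustering used, whose effect on class sizes is given above.

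**Figure D3:**
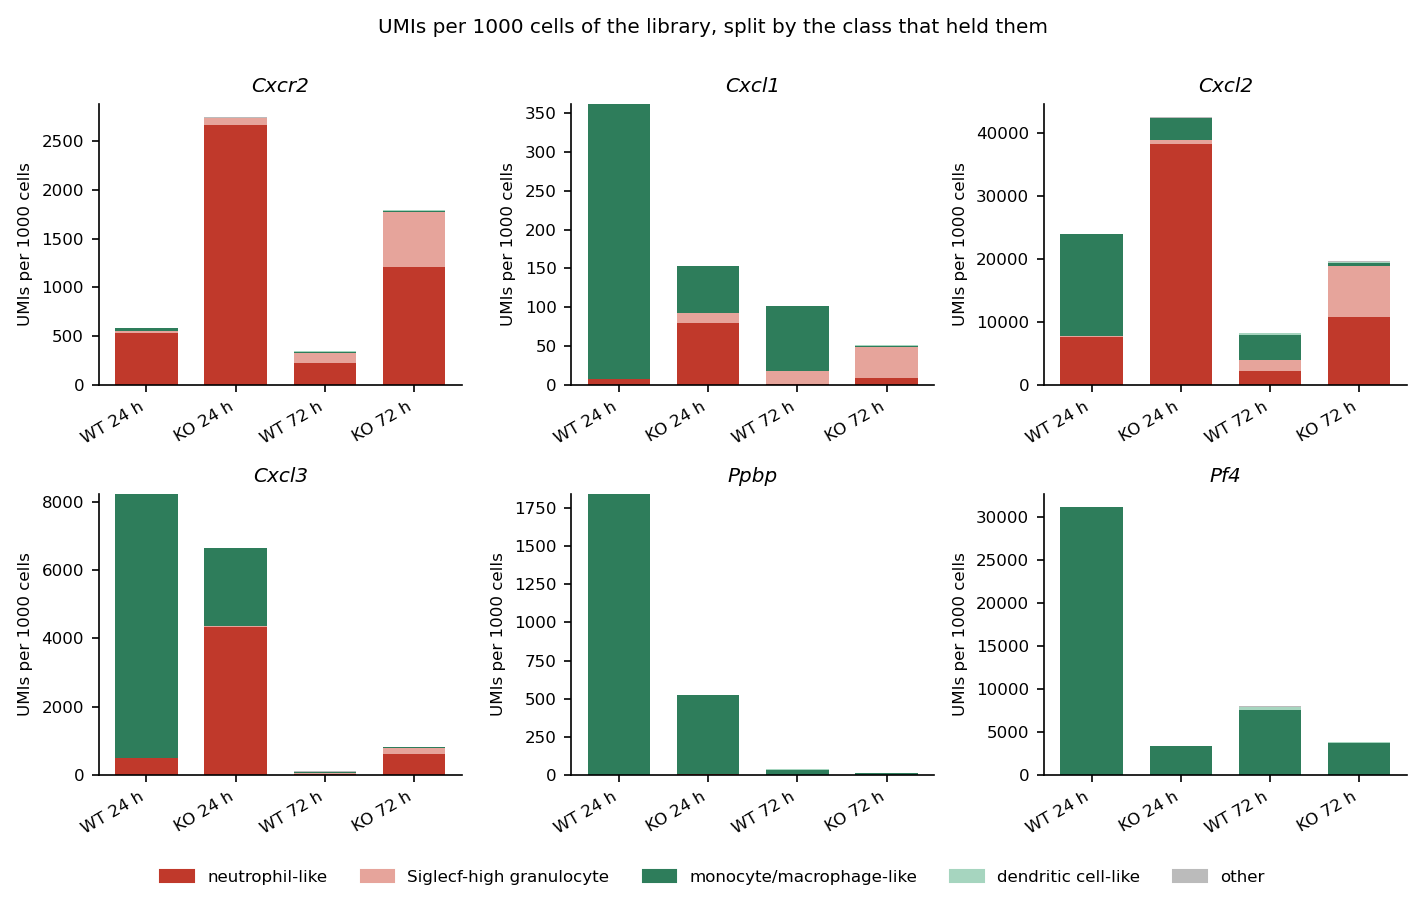
UMIs of each gene per 1000 cells of a library (stacked bars, 1 bar per library, separate y axes), split by the cell class that held them. Neutrophil-like cells hold 31.4% of Cxcl2 UMIs in WT 24 h and 90.1% in CCR2 KO 24 h, while Ppbp and Pf4 are held by monocyte/Mφ-like cells in all 4 libraries.

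Cxcl2, which encodes a ligand also called MIP-2, was present in nearly all granulocytes. Its neutrophil-like level was 17279 CPM (16979 to 17584) in WT 24 h, 16551 (16426 to 16676) in CCR2 KO 24 h, 11779 (11354 to 12216) in WT 72 h and 10165 (9978 to 10354) in CCR2 KO 72 h. Both 24 h libraries were above both 72 h libraries. After thinning, 95.7%, 93.5%, 82.1% and 83.5% of the cells had a UMI (96.0%, 95.6%, 88.4% and 90.8% before), against 0 of 22 cells, 6.14%, 2.44% and 3.14% in the lymphoid class. In CCR2 KO 72 h, 1 cell held 17.3% of the neutrophil-like Cxcl2 UMIs. The log2 ratio in CCR2 KO against WT was -0.06 at 24 h and -0.21 at 72 h, and the former turned to 0.19 when cells were gated one by one on markers and to 0.07 with libraries clustered separately, while the latter became 0.0011 under TMM scaling. The ratio of 72 h against 24 h was -0.55 (-0.61 to -0.49) in WT and -0.70 (-0.73 to -0.67) in the KO. Siglecf-high granulocytes were at 17154, 10262, 10128 and 7207 CPM, the first from 10 cells of which 1 held 52.3% of the UMIs.

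Among monocyte/Mφ-like cells Cxcl2 stood at 1414 CPM (1397 to 1431) in WT 24 h, 1664 (1622 to 1706) in CCR2 KO 24 h, 427 (415 to 439) in WT 72 h and 246 (226 to 268) in CCR2 KO 72 h. A UMI was found in 38.2%, 43.9%, 20.5% and 19.1% of thinned cells and in 65.5%, 72.6%, 46.5% and 56.4% before thinning, at median depths of 12695 to 15791 UMIs. The level was 3.31-fold lower at 72 h in WT (log2 ratio -1.73, -1.77 to -1.68) and 6.76-fold lower in CCR2 KO (-2.76, -2.89 to -2.63), the latter -1.74 as a mean over cells and -2.003 at a finer clustering. In CCR2 KO against WT it was 0.23 (0.19 to 0.28) at 24 h and -0.79 (-0.93 to -0.66) at 72 h, and the latter became 0.12 as a mean over cells and -0.06 at a finer clustering. The clusters that held most of the class differed between 24 h and 72 h, and between WT and CCR2 KO at 72 h. The clusters led by Ccl7, Ccl2 and Fabp5 and by Vcan, Chil3 and Ms4a4c held 637 and 524 of 1276 cells in WT 24 h and 102 and 52 of 219 in CCR2 KO 24 h. At 72 h the largest clusters were that led by Apoe, Ms4a7 and Trem2 in WT (586 of 852 cells) and that led by Lilra5, Mmp13 and Vcam1 in CCR2 KO (82 of 149). In dendritic cell-like cells Cxcl2 was at 33.7, 50.2, 139 and 58.1 CPM, and in pooled lymphoid cells at 0, 113, 81.6 and 63.8. The dendritic cell-like level of WT 72 h was 4.14-fold that of WT 24 h and 2.40-fold that of CCR2 KO 72 h. Its thinned share of 7.14% (3.75 to 12.1) overlapped in its interval with the 2.44% (0.297 to 8.53) of lymphoid cells in that library, so expression in dendritic cells was not told apart from background there.

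Among monocyte/Mφ-like cells Cxcl3 was found nearly only at 24 h. Its level was 674 CPM (663 to 686) in WT 24 h and 1113 (1079 to 1148) in CCR2 KO 24 h, but 3.20 (2.27 to 4.39, 38 UMIs) in WT 72 h and 10.9 (6.93 to 16.4, 23 UMIs) in CCR2 KO 72 h. This was 211-fold lower at 72 h in WT (log2 ratio -7.72, -8.22 to -7.26) and 102-fold lower in CCR2 KO (-6.67, -7.33 to -6.08). The size depended on the processing, from -9.38 to -5.39 in WT and from -7.02 to -5.22 in CCR2 KO, with the smallest after thinning, and in WT 72 h 1 cell held 25 of the 38 UMIs. Thinned shares were 15.8%, 18.2%, 0.357% and 1.53% (34.2%, 30.1%, 1.17% and 8.05% before thinning), against at most 0.877% in lymphoid cells. The UMIs were concentrated, with 31 of 1276 cells holding 50% of them in WT 24 h and 7 of 219 cells in CCR2 KO 24 h, where 1 cell held 607 of 4046. In neutrophil-like cells Cxcl3 was at 1129 CPM (1053 to 1209) in WT 24 h, 1884 (1842 to 1927) in CCR2 KO 24 h, 203 (151 to 268) in WT 72 h and 580 (536 to 626) in CCR2 KO 72 h. CCR2 KO was higher at both times, by a log2 ratio of 0.74 (0.63 to 0.84) at 24 h and 1.51 (1.10 to 1.96) at 72 h. The latter rested on 50 UMIs in WT, and it was 0.68 after thinning and 0.63 as a mean over cells, below 2-fold in both. The thinned shares at 72 h were 11.9% and 12.3%. Of the 31-base words in the last 500 bases of the Cxcl2 transcripts, 91 of 837 (10.9%) were also found in Cxcl3, and reads from them could have been dropped or split in counting.

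Cxcl1 was a gene of few cells. Its level in monocyte/Mφ-like cells was 30.9 CPM (28.5 to 33.5, 593 UMIs) in WT 24 h, 29.99 (24.6 to 36.2, 109 UMIs) in CCR2 KO 24 h, 9.27 (7.62 to 11.2, 110 UMIs) in WT 72 h and 0.475 (0.0120 to 2.65, 1 UMI) in CCR2 KO 72 h. The log2 ratio of CCR2 KO against WT was -0.04 (-0.35 to 0.25) at 24 h. At 72 h against 24 h it was -1.74 (-2.04 to -1.44) in WT and -5.98 (-11.30 to -3.47) in the KO. The latter compares 1 UMI with 109 and is -4.39 with the 1 UMI set at the limit of 3 counts, the value used for calls past 2-fold. After thinning, 0 UMIs were left in 131 CCR2 KO 72 h cells (up to 2.29% of cells), and the ratio with that limit was -0.03. Only 53 of 1276 WT 24 h cells had a UMI, and 7 of them held 50% of the UMIs. In WT 24 h the highest level was in the cluster led by Lilra5, Mmp13 and Vcam1, at 543 CPM (448 to 652, 115 UMIs in 21 cells), of which 1 cell held 49.6%. The same cluster was at 9.05 CPM (3.64 to 18.6, 7 UMIs in 51 cells) in CCR2 KO 24 h, a log2 ratio of -5.91 (-7.25 to -4.82). Lymphoid cells had 0 UMIs of Cxcl1 in all 4 libraries. Neutrophil-like cells were at 17.8, 34.3, 4.07 and 8.14 CPM, the third from 1 UMI, and Siglecf-high granulocytes at 0, 198, 98.7 and 36.1 CPM, where 1 cell held 69.6% of the UMIs in CCR2 KO 24 h.

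Ppbp, the precursor gene of NAP-2 and otherwise known as a platelet gene, was found among monocyte/Mφ-like cells at 24 h. Its level was 161 CPM (155 to 166) in WT 24 h and 253 (237 to 270) in CCR2 KO 24 h, and 3.37 (2.41 to 4.59, 40 UMIs) and 6.66 (3.64 to 11.2, 14 UMIs) at 72 h. The level at 72 h was 47.7-fold lower in WT (log2 ratio -5.58, -6.06 to -5.13) and 37.99-fold lower in CCR2 KO (-5.25, -6.12 to -4.49), the latter -3.03 after thinning and -5.85 at a finer clustering. In WT 24 h, 67 of 191 cells with a Ppbp UMI had 10 or more of them and held 2747 of 3084 UMIs. In CCR2 KO 24 h, 7 cells held 906 of 919 UMIs and 1 cell held 41.2%, so the higher level there rested on few cells. Among thinned cells, 5.29% (4.13 to 6.67) in WT 24 h and 2.80% (1.04 to 6.00) in CCR2 KO 24 h had a UMI (14.97% and 6.85% before thinning), against 0 in lymphoid cells. Platelet genes were near 0 in these cells. The 6 measured platelet markers (Itga2b, Gp6, Gp5, Clec1b, Itgb3 and Selp) summed to 1.71 CPM (0.626 to 3.71) in the 191 WT 24 h cells with Ppbp and to 6.95 (5.71 to 8.39) in the 1085 cells without it. In CCR2 KO 24 h they had 0 UMIs in the 15 cells with Ppbp and 4.27 CPM in those without. Neutrophil-like cells held 5 Ppbp UMIs in all.

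Pf4 was found in many monocyte/Mφ-like cells at both times. Its level in the class was 2715 CPM (2692 to 2739) in WT 24 h, 1623 (1582 to 1665) in CCR2 KO 24 h, 836 (820 to 853) in WT 72 h and 1841 (1784 to 1900) in CCR2 KO 72 h. CCR2 KO was below WT at 24 h (log2 ratio -0.74, -0.78 to -0.70) and 2.20-fold above WT at 72 h (1.14, 1.09 to 1.19), but the latter was 0.61 among cells of at most 5% mitochondrial UMIs and 0.86 at a coarser clustering. From 24 h to 72 h it was 3.25-fold lower in WT (-1.70, -1.73 to -1.67), whereas in CCR2 KO the log2 ratio was 0.18 (0.12 to 0.24), which became -0.06 with TMM scaling, -0.03 with DESeq2 size factors, -0.18 at the coarser clustering and -0.47 at 5% mitochondrial UMIs. Thinned shares were 41.1%, 34.1%, 40.2% and 62.6% (62.1%, 51.6%, 72.5% and 77.9% before thinning), against at most 4.55% (1 of 22 cells) in lymphoid cells. With cells thinned to 500 UMIs the WT shares were 35.0% (32.4 to 37.7) at 24 h and 24.6% (21.8 to 27.7) at 72 h, so whether the WT share differed between times depended on the thinning. In CCR2 KO 24 h, 8 of 219 cells held 50% of the UMIs. In WT 72 h, B cell-like cells were listed at 564 CPM, but 178 UMIs lay in 6 of 20 cells and 1 cell held 45.5%.

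**Figure D4:**
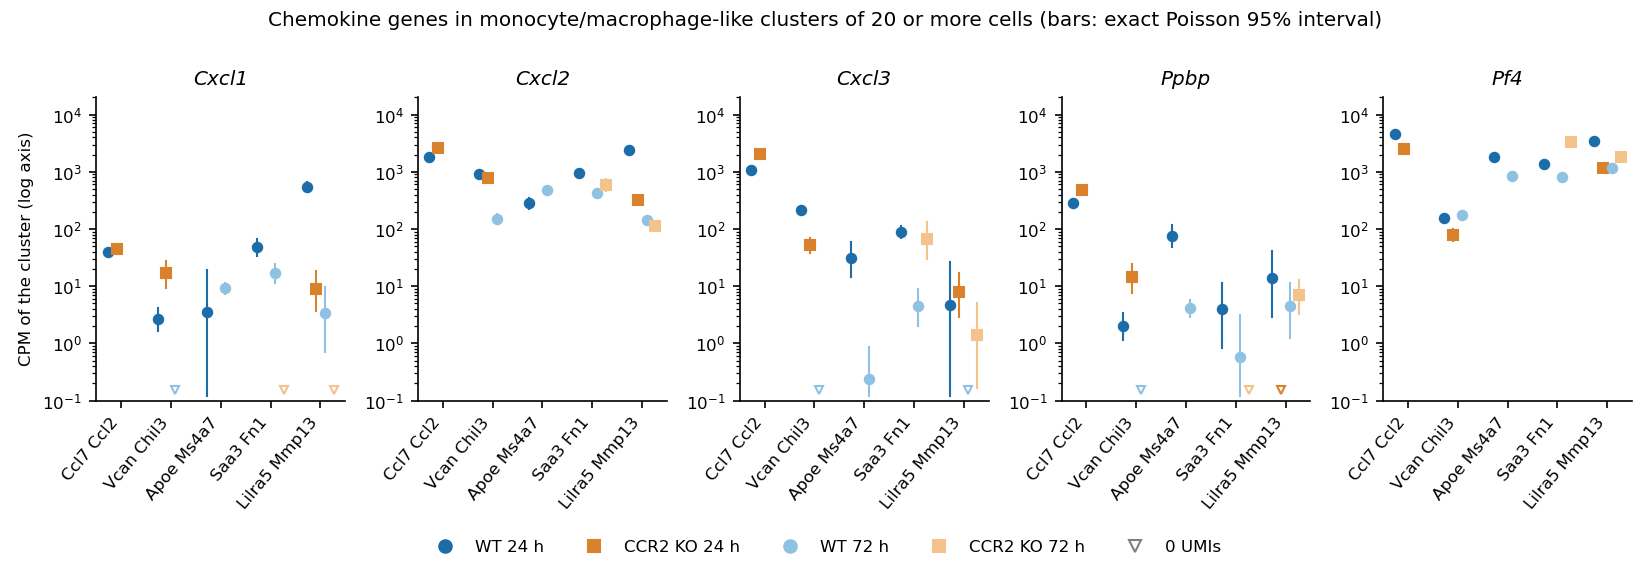
Level of each chemokine gene (CPM, log axis) in monocyte/Mφ-like clusters with 20 or more cells in a library, named by their 2 leading genes, with bars for exact Poisson 95% intervals and open triangles for 0 UMIs. Ppbp and Cxcl3 are highest in the cluster led by Ccl7 and Ccl2 at 24 h, and Cxcl1 in that led by Lilra5 and Mmp13 in WT 24 h.

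The chemokine genes differed among monocyte/Mφ-like clusters. In WT 24 h the cluster led by Ccl7, Ccl2 and Fabp5 held 3041 of 3084 Ppbp UMIs, 11298 of 12940 Cxcl3 UMIs and 48684 of 52123 Pf4 UMIs. Its levels were 288 CPM of Ppbp, 1069 of Cxcl3 and 4608 of Pf4, against 2.04, 212 and 153 in the monocyte cluster led by Vcan, Chil3 and Ms4a4c. Cxcl2 was less unequal between these clusters, at 1815 and 902 CPM. Compared within the first cluster at 24 h, CCR2 KO against WT gave a log2 ratio of 0.95 (0.90 to 1.01) for Cxcl3, 0.71 (0.61 to 0.82) for Ppbp, 0.53 (0.49 to 0.58) for Cxcl2, 0.17 (-0.18 to 0.51) for Cxcl1 and -0.88 (-0.92 to -0.84) for Pf4. Each had the direction found over the whole class except Cxcl1, whose intervals included 0 in both. The cluster led by Lilra5, Mmp13 and Vcam1 had 20 or more cells in every library, and within it Pf4 was at 3489, 1178, 1164 and 1811 CPM. Its log2 ratio there was -1.57 in CCR2 KO against WT at 24 h and 0.64 at 72 h, and -1.58 and 0.62 for 72 h against 24 h in WT and in CCR2 KO. Cxcl2 in that cluster was at 2408 CPM in WT 24 h, where 1 of 21 cells held 56.7% of the UMIs, and at 326, 145 and 111 CPM in the other libraries.

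The 5 chemokine genes, Pf4 included, were counted past a 2-fold difference at 20 CPM or more in either library. In CCR2 KO against WT monocyte/Mφ-like cells at 24 h, 0 of 5 were past 2-fold in either direction, where 1.36% of 5875 genes were lower and 2.84% higher. At 72 h, 1 of 2 measured, Pf4, was higher, where 5.92% of 6397 genes were higher and 2.56% lower. Cxcl1, Cxcl3 and Ppbp were under 20 CPM in both 72 h libraries and so were not counted, with log2 ratios of -4.29 (-9.60 to -1.78, 1 UMI against 110), 1.77 (0.96 to 2.56) and 0.98 (-0.01 to 1.89). At 72 h against 24 h in WT, 5 of 5 were lower, where 6.74% of 6172 genes were. In CCR2 KO 4 of 5, all but Pf4, were lower, where 4.91% of 6436 genes were. Across time the same 3 genes passed the minimum through the 24 h library alone, so only a lower level was possible for them. These counts thus rest in part on that entry and cannot be set against those between genotypes. Cxcl2 and Pf4 reached 20 CPM at both times, with log2 ratios of -1.73 and -1.70 in WT and -2.76 and 0.18 in CCR2 KO. The median of all genes lay between -0.07 and 0.14 in these 4 comparisons.

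In neutrophil-like cells, 2 of 3 measured chemokine genes were lower at 72 h in WT (Cxcl3 and Pf4, the latter at least 2.36-fold with 0 UMIs against 21), where 6.87% of 4586 genes were. In CCR2 KO 2 of 3 were lower (Cxcl1 and Cxcl3), where 7.97% of 4392 genes were. Cxcl1 in CCR2 KO (34.3 CPM at 24 h, 8.14 at 72 h) and Pf4 in WT reached 20 CPM only at 24 h. They entered these counts through the library where they were high. At 24 h, 1 of 4 was lower in CCR2 KO (Pf4, 9.06 against 28.8 CPM), where 2.42% were, and at 72 h 1 of 2 was higher (Cxcl3), where 4.35% of 4573 genes were higher and 7.33% lower. Both Pf4 counts rested on the 21 UMIs of WT 24 h, the only library where this class reached 20 CPM of Pf4. There 2.17% of thinned neutrophil-like cells had a Pf4 UMI against 1 of 22 lymphoid cells (4.55%), a share read as background. The monocyte/Mφ marker sum of that class was 2420 CPM against 782 in CCR2 KO 24 h and 553 in WT 72 h, and its part in the Pf4 counts was not tested. Comparisons between genotypes share their libraries with those across time. A sum of 10 immediate early and heat shock genes, which cell handling can raise, was 4325, 4769, 5581 and 2272 CPM in monocyte/Mφ-like cells and 14836, 16039, 13520 and 11017 CPM in neutrophil-like cells, in the order WT 24 h, CCR2 KO 24 h, WT 72 h, CCR2 KO 72 h. Its part in these differences was not tested.

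**Figure D5:**
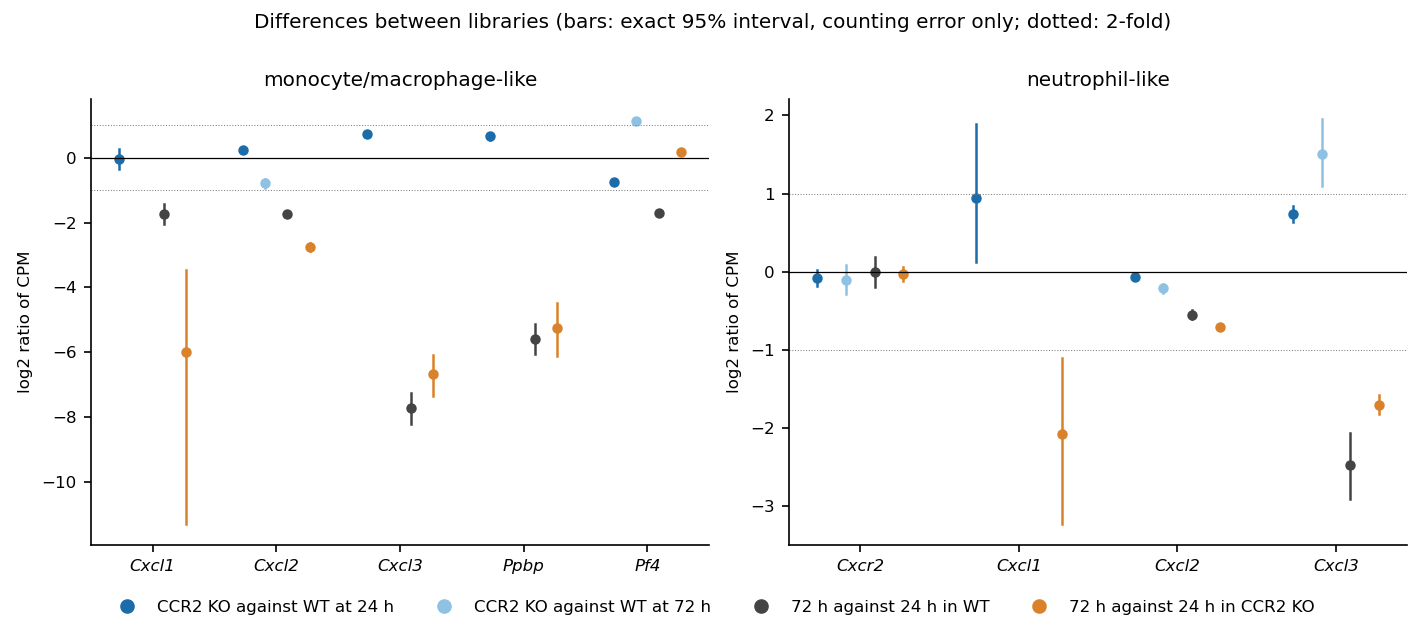
Log2 ratios of CPM between libraries for the chemokine genes in monocyte/Mφ-like cells (left) and for Cxcr2 and the inducible ligands in neutrophil-like cells (right), for genes at 20 CPM or more in either library, with exact 95% intervals and dotted lines at 2-fold. Cxcr2 lies between -0.10 and -0.01 in all 4 comparisons, while Cxcl3 in monocyte/Mφ-like cells lies at -7.72 and -6.67 across time.

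Chemokine genes were found together in single cells. Among thinned WT 24 h monocyte/Mφ-like cells, Cxcl3 was found in 29.96% (25.9 to 34.3) of 484 cells with Cxcl2 and in 7.03% (5.34 to 9.06) of 782 cells without it. Cxcl1 was found in 20 of the former (4.13%) and in 0 of the latter, which allows a share of up to 0.384%. Ppbp was found in 11.5% (8.92 to 14.6) of 520 cells with Pf4 and in 0.938% (0.378 to 1.92) of 746 cells without it. The same order held in CCR2 KO 24 h, with Cxcl3 in 27.7% of 94 cells with Cxcl2 and 10.8% of 120 without, and Ppbp in 6 of 73 cells with Pf4 and 0 of 141 without. In neutrophil-like cells of CCR2 KO 24 h, Cxcl3 was found in 36.5% (33.8 to 39.3) of 1191 cells with Cxcl2 and in 6.02% (1.98 to 13.5) of 83 cells without it. In the other neutrophil-like libraries few cells lacked Cxcl2 and the intervals overlapped, with 33.2% (27.6 to 39.2) against 16.7% (2.09 to 48.4, 12 cells) in WT 24 h, 13.0% (6.14 to 23.3) against 6.67% (0.169 to 31.9, 15 cells) in WT 72 h and 14.7% (9.83 to 20.8) against 0 of 35 cells (exact interval up to 10.003%, and up to 8.57% by the limit of 3 counts) in CCR2 KO 72 h. Cells of 1 library are not replicates, and these shares describe those libraries.

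Genes that induce or restrain the ligands were read from lists of the pathway. Of the cytokines that induce them, 5 were measured in monocyte/Mφ-like cells over time. In WT, 2 of 5 were 2-fold or more lower at 72 h, Il1a at 3.88 against 59.96 CPM (log2 ratio -3.95, -4.41 to -3.53) and Il6 at 10.4 against 32.2 (-1.63, -1.92 to -1.35), where 6.74% of all genes were. In CCR2 KO, 5 of 5 were lower, where 4.91% of all genes were, among them Il1a (-5.11), Il6 (-3.39), Tnf (-2.74, -3.23 to -2.28) and Osm (-1.39, -1.60 to -1.18). Il1a and Il6 reached 20 CPM only at 24 h in both genotypes, and so did Tnf in CCR2 KO (19.96 CPM at 72 h). Both counts thus rest in part on genes that entered through the library where they were high. Tnf was at 133 CPM in CCR2 KO against 60.5 in WT at 24 h (1.14, 0.99 to 1.30) and was the only one of 5 past 2-fold there, where 2.84% of all genes were higher. Of 15 genes of the NF-κB system and of mRNA decay, 5 were 2-fold or more lower in CCR2 KO than in WT monocyte/Mφ-like cells at 72 h, where 2.56% of all genes were, with a list median of -0.79 against 0.13 over all genes. These included the NF-κB inhibitor genes Tnfaip3, at 15.7 against 57.3 CPM (-1.87, -2.42 to -1.36), and Nfkbia, at 177 against 415 (-1.23, -1.39 to -1.08), the subunit gene Relb (-1.28) and Zfp36, whose product promotes decay of chemokine mRNAs (-1.12). Tnfaip3 and Relb (18.1 CPM in CCR2 KO) reached 20 CPM only in WT. This count thus also rests in part on genes that entered through the library where they were high. In monocyte/Mφ-like cells the immediate early and heat shock sum given above was also lower in CCR2 KO 72 h than in WT 72 h. The largest clusters of these libraries differed as well. The part of either in this list result was not tested. At 72 h, 5 of 14 measured genes of this list were also lower in CCR2 KO dendritic cell-like cells, where 4.51% of all genes were. In Siglecf-high granulocytes 3 of 15 were lower (3.78% of all genes), and in neutrophil-like cells 0 of 15 (7.33%). In monocyte/Mφ-like cells at 24 h, 1 of 15 was lower in CCR2 KO, where 1.36% of all genes were. This was Irak3 (-1.37), an inhibitor of IL-1 receptor signalling. Irak3 was also lower in CCR2 KO neutrophil-like cells at 24 h, at 80.3 against 301 CPM (-1.91, -2.16 to -1.66). This was 1 of 15 genes lower there, where 2.42% of all genes were. For 72 h against 24 h in WT, Irak3 was at -2.04 in neutrophil-like and -1.41 in monocyte/Mφ-like cells. Those comparisons share the WT 24 h library, whose neutrophil-like class had the highest monocyte/Mφ marker sum. The part of that sum was not tested. In neutrophil-like cells 2 of 4 inducing cytokines were higher in CCR2 KO at 24 h, Il1a at 258 against 107 CPM (1.27, 0.94 to 1.62) and Osm at 1071 against 473 (1.18, 1.02 to 1.34), where 294 of 4333 genes (6.79%) were higher. Cxcl5, a further ligand gene of the locus, had at most 27 UMIs in a class.

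The genes most like each member were taken from the correlation of log2(CPM + 10) over 22 combinations of class and library with 20 or more cells, among 6391 genes. These points share libraries and depth, and r describes them only. Cxcr2 was most like Gm17619, G0s2, Ppp1r3b, Tnfrsf23 and Trem1 (r of 0.992 to 0.985). Cxcl2 was most like Dmxl2, Il1rn, Clec4e, Fpr2 and Ets2 (0.981 to 0.968), and Cxcl3 was most like Gla, Por, Il1rn, Il1a and Rab20 (0.921 to 0.912). Cxcl1 was most like H3f3b, Il1a, Mindy3, Gngt2 and Ston2 (0.922 to 0.856). Ppbp was most like Fabp4, Cxcl13, Nr1h3, Serpinb2 and Ccl24 (0.934 to 0.878), and Pf4 was most like Siglec1, a macrophage gene, Ccl12 and Itsn1 (0.978 to 0.970). Between members, r was 0.89 for Cxcr2 and Cxcl2, 0.89 for Cxcl2 and Cxcl3, 0.70 for Ppbp and Pf4, and -0.40 for Cxcr2 and Pf4.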

How the data were processed

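CD45+ cells of the small intestinal muscularis were profiled in 4 libraries, 1 per genotype and time. The authors made UMI counts per gene and cell with Cell Ranger 3.0.2 on GRCm38/mm10, and Seurat was used to drop cells with few genes or over 10% mitochondrial UMIs. The deposited counts were used as they stood, with no normalisation by the authors. Whether doublets had been removed was not given in the sources used here, and Scrublet (scanpy 1.11.5, score above 0.2) marked 86 of 5800 cells, which were kept and left out in an alternative. No cell annotation was used. Cells were scaled to 10000 UMIs, and 2000 variable genes without the 6 genes of interest gave 30 principal components, 20 neighbours and Leiden clusters at resolution 1 (leidenalg 0.10.2). A cluster took a name when at least 3 markers reached 20 CPM and the marker score was 0.6 or more. UMIs were summed per class and library and given as CPM with exact Poisson intervals, shares with exact Clopper-Pearson intervals, and ratios with exact conditional binomial intervals (scipy 1.17.1). With 1 library per group no test was made, and a gene counted as different past 2-fold at 20 CPM or more in either library. Named genes were the 6 members, up to 4 genes of each pathway list with the widest ratio, and the 5 genes most like each member (the first 3 for Pf4, since 1 gene is not reported here). The members and lists were chosen with earlier results of these data known, and the immediate early and heat shock list was added after seeing the data. Alternatives were TMM scaling (edgeR 4.0.16) and DESeq2 1.42.0 size factors, other clusterings, a marker gate on single cells, and filters on doublets, mitochondrial UMIs and platelet markers. The ratio calculation was tested on simulated counts with 200 genes changed 4-fold, of which 99% to 100% were recovered. Up to 8.63% of unchanged genes were called past 2-fold in either direction there, so the shares over all genes can hold counting error.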

Additional observations from a re-analysis of the deposited data

Results flagged for a closer look

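In monocyte/Mφ-like cells, Cxcl2 and Pf4 went in opposite directions in pairs of comparisons. Cxcl2 in CCR2 KO against WT had a log2 ratio of 0.23 at 24 h and -0.79 at 72 h. Pf4 had -0.74 at 24 h and 1.14 at 72 h for the same comparison, and -1.70 in WT and 0.18 in CCR2 KO for 72 h against 24 h. With 1 library per group, none of these differences between comparisons was tested. The Pf4 value of 0.18 changed sign under TMM scaling (-0.06), DESeq2 size factors (-0.03), Leiden resolution 0.5 (-0.18) and the 5% limit on mitochondrial UMIs (-0.47), and the Cxcl2 value of -0.79 became 0.12 as a mean over cells and -0.06 at Leiden resolution 2.

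The 11 cells removed as non-immune held a few chemokine UMIs above the limit that a count of 0 allows. In CCR2 KO 24 h, 5 such cells held 42 UMIs of Cxcl2 and 78 of Cxcl3, of which 41 and 77 were the most in 1 cell. In CCR2 KO 72 h, 6 such cells held 6 UMIs of Cxcl1, all in 1 cell.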

How the results depend on the processing

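No paired analysis was possible because each group had 1 library and the labels gave no replicate numbers. For the same reason no replicate could be left out. Of 377 log2 ratios recomputed over whole classes for 29 results, 371 stayed on their side of 2-fold. For the 13 results past 2-fold all 169 recomputed values had the same direction, and 164 were still past 2-fold. The ratio nearest 0 was -0.03, for Cxcl1 at 72 h against 24 h in CCR2 KO monocyte/Mφ-like cells after thinning. Ratios within clusters were left out of these tallies, and a reversal among them is given below. The ratio of Cxcr2 in neutrophil-like cells moved beyond its counting interval under several settings but stayed within 2-fold in all of them. For CCR2 KO against WT at 24 h it was -0.21 with DESeq2 size factors, 0.065 with libraries clustered separately and 0.23 with a marker gate on single cells. At 72 h it was 0.11 with TMM scaling and -0.38 with separate clustering. For 72 h against 24 h in WT it was -0.23 with TMM, -0.21 with DESeq2, -0.21 as a mean over cells and -0.45 with Siglecf-high granulocytes counted as neutrophil-like. In CCR2 KO it was -0.31 with separate clustering, -0.28 with the gate, -0.12 after thinning and -0.50 with Siglecf-high granulocytes counted.

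The count of chemokine genes past 2-fold in CCR2 KO against WT monocyte/Mφ-like cells at 72 h was 1, and 0 at no more than 5% mitochondrial UMIs, where Pf4 was at 0.61. At Leiden resolution 0.5 it was also 1, but the gene was Cxcl2 (-1.06) and not Pf4 (0.86). Within the cluster led by Lilra5, Mmp13 and Vcam1, a comparison added after seeing the data, Ppbp at 72 h against 24 h in CCR2 KO was 0.83 (10 UMIs against 0, set at the limit of 3 counts), opposite to the whole class. The cause of these changes was not tested.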
